A study of Homo sapiens with 21 samples.

Results

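The comparison set out here asked whether AG494 changed gene expression differently in SH-SY5Y cells that carry a mutated amyloid precursor protein than in unmutated SH-SY5Y cells. It is the interaction of compound and genotype, that is the change under AG494 in mutated cells minus the change under AG494 in wild-type cells, on the log2 scale. The arrays were chosen by their titles and number 12 of the 21 in the series, in 4 groups of 3. The other 9 arrays, 3 each of both genotypes with the compound NOSCA and of wild-type cells with the compound labelled PALBO, enter only where a fit of 21 arrays is named. Wild-type cells (WT) received vehicle (WT_DMSO) or AG494 (WT_AG494), and cells with the APP-V717F mutation (APP cells) received vehicle (APP_DMSO) or AG494 (APP_AG494). All cells had first been differentiated towards a neuronal state over 3 to 4 days, with retinoic acid at 10 µM and with BDNF, a neurotrophic factor, at 50 ng/mL. Compound or vehicle then followed for 72 h, with 0.1% DMSO in every culture, so that the vehicle was shared by all groups. The labels give no dose of AG494. They describe a single mutated line and do not say how it was made, so that the mutation and any other difference between the lines cannot be told apart.

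SH-SY5Y is a human neuroblastoma line of sympathetic origin. The amyloid precursor protein is cut by secretases to amyloid beta peptides, and substitutions at V717, near the cut of gamma-secretase, are a known cause of inherited Alzheimer's disease. AG494 is a tyrphostin, a small molecule that inhibits the tyrosine kinase of the EGF receptor, which passes growth factor signals to the ERK cascade. An interaction is positive where AG494 moved a gene further up, or less far down, in APP cells than in WT cells, and negative in the opposite case.

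Each group had 1 array in each of 3 runs of title numbers, and the run was a block in the fit, since arrays of a run deviated together. Array medians lay between 7.877 and 8.030. Cells expressed the sympathetic neuroblast genes PHOX2A (mean level 12.2), HAND2 (12.7), GATA3 (10.8) and DBH (13.1), while TH, the enzyme that starts catecholamine synthesis, was lower at 8.14. Over the 27 measured neuroblast genes the mean levels spread from 7.76 (MAOB) to 13.1 (DBH), with MYCN at 8.43. Markers of other cells spread widely in level, from 4.84 (FOXD3) to 8.51 (GFAP) over 12 glial genes and from 4.97 (PTPRC) to 8.23 (TYROBP) over 16 immune genes, with SOX10 at 7.71 and CD68 at 8.17. The 16 genes also known from fibroblasts and endothelium spread from 4.84 (EMCN) to 10.3 (PDGFRA). FAP (10.1) and COL1A1 (9.81) were not dim, while COL1A2 (5.84) and the endothelial gene PECAM1 (5.86) were. The transcript of APP itself was at 12.49, 12.61 and 12.61 in WT_DMSO, 12.51, 12.46 and 12.63 in WT_AG494, 12.26, 12.37 and 12.25 in APP_DMSO and 12.16, 12.51 and 12.49 in APP_AG494. Its interaction was 0.13 (SE 0.11, limma adjusted p = 0.696), and the arrays read the amount of the transcript and not the mutation.

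AG494 moved more genes past the threshold in APP cells than in WT cells, and a short list of genes differed between the genotypes in the test of the difference itself. With limma and an adjusted p under 0.05, 22 of 18132 genes (0.121%) were called in the interaction. Of these, 6 were more positive in APP cells (0.0331%) and 16 more negative (0.0882%). The calls in the single responses numbered 154 in WT cells (0.849%, 88 higher and 66 lower) and 1413 in APP cells (7.79%, 577 higher and 836 lower). A larger number of calls in APP cells is not a test of the difference, which the interaction gives. All 22 genes were also called in the APP response, in the direction of the interaction, and only IL32, CNTN2 and TMEFF2 among them were called in the WT response. At an unadjusted p under 0.05 the interaction held 2276 genes (12.6%), and the median SE of an interaction was 0.117 against 0.0828 for a single response.

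**Figure D1:**
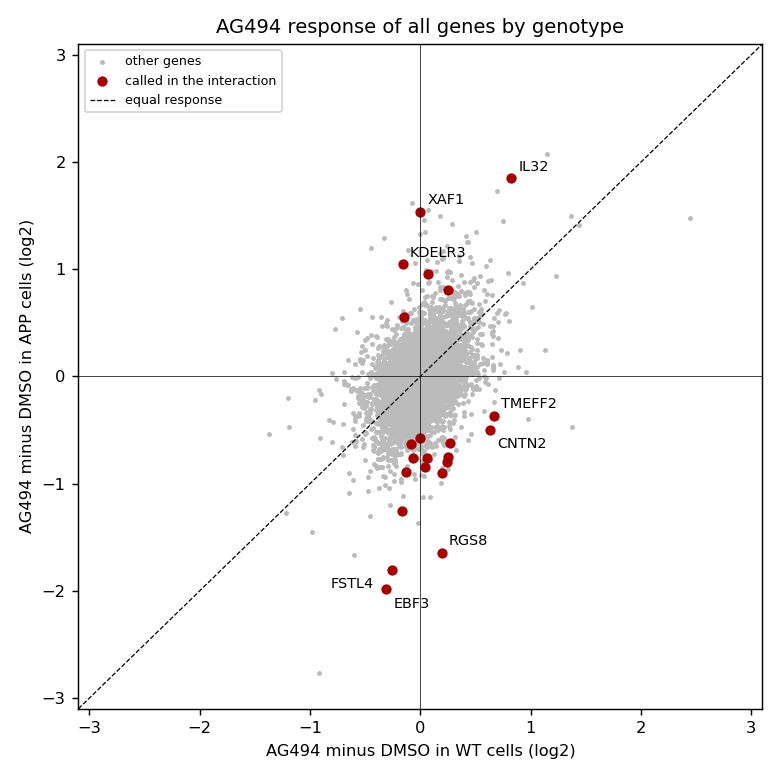
The plot sets the AG494 response in WT cells (horizontal axis, log2) against that in APP cells (vertical axis, log2) for 18132 genes, with the 22 genes called in the interaction in red and a dashed line of equal response. The called genes lie off the line of equal response, and so do other genes. Among the called genes EBF3, RGS8 and FSTL4 lie lowest and IL32 and XAF1 highest.

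The number of calls depended on the fit and on single arrays. Without the run as a block it was 7, all of them among the 22, and with all 21 arrays and the block it was 227, with 21 of the 22 among them. It was 206 without WT_DMSO replicate 3, all 22 among them, and 3 without WT_AG494 replicate 2 or without APP_AG494 replicate 3. Centring each array on its median gave 20 higher and 18 lower calls, and quantile normalisation again gave 9 and 12, against 6 and 16. None of the 22 genes changed sign under any of these settings. EBF3, RGS8 and NKAIN4 kept their call whichever of the 12 arrays was left out.

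The strongest difference by adjusted p concerned genes that were high in vehicle-treated APP cells and fell under AG494 there. EBF3, a transcription factor of the EBF family that takes part in neuronal differentiation, was at 7.89, 7.84 and 8.07 in WT_DMSO and at 7.64, 7.55 and 7.68 in WT_AG494. In APP cells it was at 9.72, 10.02 and 10.16 with DMSO and at 7.88, 7.88 and 8.17 with AG494. The 3 APP_DMSO arrays stood apart from the other 9, and the APP_AG494 arrays overlapped with those of WT_DMSO. EBF3 fell by 1.99 in APP cells, while its change in WT cells was -0.31 (SE 0.083, adjusted p = 0.141), which gave an interaction of -1.68 (SE 0.12, limma adjusted p = 0.000622).

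RGS8, which speeds the shut-off of G protein signals, was dim in WT cells, at 5.52, 5.13 and 5.38 with DMSO and 5.66, 5.32 and 5.63 with AG494. In APP cells its levels were 8.08, 8.13 and 7.66 with DMSO and 6.41, 6.36 and 6.17 with AG494. All APP arrays lay above all WT arrays, and the excess was smaller with AG494. The interaction of RGS8 was -1.84 (SE 0.18, limma adjusted p = 0.00552). A dim level in WT cells leaves less room for a fall there, and the values carry no detection call.

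NPPC, the precursor of C-type natriuretic peptide, was at 8.32, 8.44 and 8.47 in APP_DMSO and at 7.24, 7.16 and 7.08 in APP_AG494. In WT cells it was at 7.28, 7.33 and 7.02 with DMSO and at 6.96, 7.11 and 7.07 with AG494. The APP arrays with AG494 lay within the range of the WT arrays, and the APP arrays with DMSO lay above it. NPPC had an interaction of -1.09 (SE 0.12, adjusted p = 0.0144). NKAIN4, a membrane protein that binds the sodium pump, followed the same order at a dim level, with 6.70, 6.67 and 6.80 in APP_DMSO, 5.73, 5.71 and 6.02 in APP_AG494, 5.38, 5.37 and 5.58 in WT_DMSO and 5.48, 5.51 and 5.91 in WT_AG494. Its interaction was -1.09 (SE 0.10, adjusted p = 0.00407).

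FSTL4, a secreted follistatin-like protein, was at 10.01, 10.10 and 9.70 in APP_DMSO and 8.33, 7.98 and 8.09 in APP_AG494. In WT cells it was at 7.25, 7.39 and 6.72 with DMSO and 6.59, 6.95 and 7.03 with AG494. It fell in every run in APP cells, with changes of -1.68, -2.12 and -1.61, while the WT changes of -0.65, -0.43 and 0.31 differed in sign between the runs. The interaction of -1.54 (SE 0.24, adjusted p = 0.0494) lay just under the threshold. FAM135B changed by -0.76 in APP cells and by 0.25 in WT cells, with an interaction of -1.003 (SE 0.12, adjusted p = 0.0158). PPARGC1A, a coactivator that drives mitochondrial genes, was at 6.65, 6.41 and 6.92 in APP_DMSO, 5.94, 5.77 and 5.99 in APP_AG494 and between 5.16 and 5.54 on all WT arrays. Its interaction of -0.82 had an adjusted p of 0.0499, the highest among the 22 genes.

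**Figure D2:**
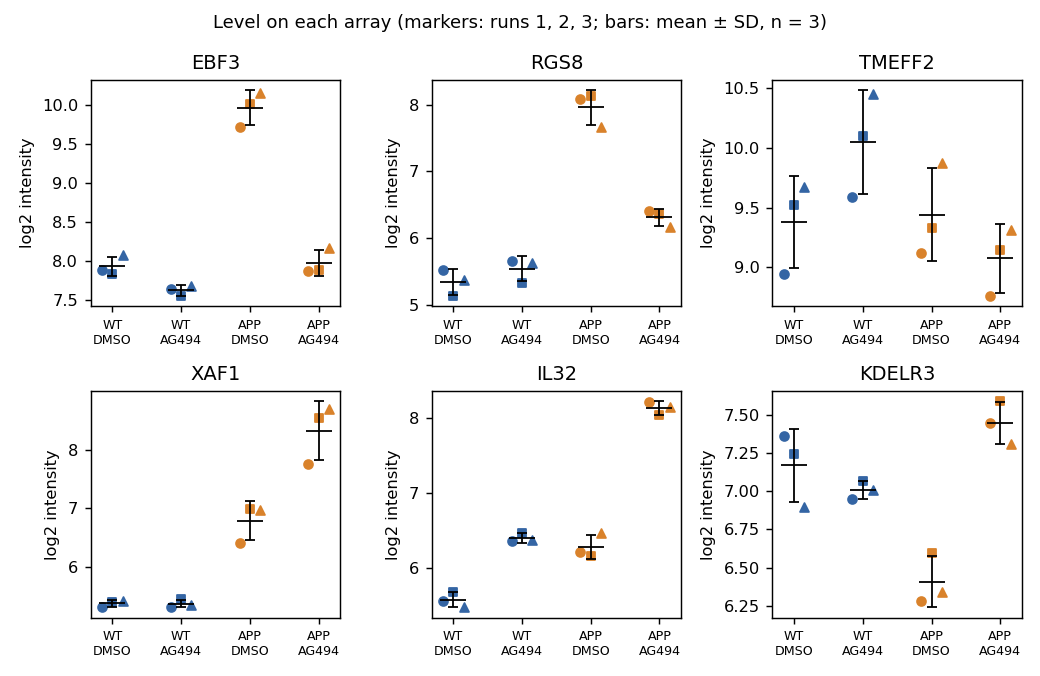
Each panel gives the log2 intensity of 1 gene on the 12 arrays by group, with circles, squares and triangles for runs 1, 2 and 3, blue for WT and orange for APP cells, and bars for the mean and SD of 3 arrays. EBF3 and RGS8 fall from APP_DMSO to APP_AG494, TMEFF2 rises in WT cells and falls in APP cells, and XAF1, IL32 and KDELR3 rise most in APP cells; the vertical axes do not start at 0.

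Only 2 genes were called in opposite directions in the 2 genotypes, and both encode membrane proteins of neurons. TMEFF2, which carries follistatin-like and EGF-like domains, was at 8.95, 9.52 and 9.67 in WT_DMSO and 9.59, 10.10 and 10.46 in WT_AG494. The APP arrays were at 9.12, 9.33 and 9.87 with DMSO and 8.76, 9.15 and 9.32 with AG494. Levels spread widely between runs, so that the WT_DMSO arrays overlapped with those of the other 3 groups, while the changes within a run did not overlap between the genotypes: 0.64, 0.58 and 0.78 in WT cells and -0.36, -0.18 and -0.55 in APP cells. TMEFF2 rose in WT cells by 0.67 (adjusted p = 0.0105) and fell in APP cells by 0.37 (adjusted p = 0.0282), an interaction of -1.03 (SE 0.12, limma adjusted p = 0.0144). Of its 2 other probe sets, only 1 had the same sign.

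CNTN2, an adhesion molecule of axons, was the second. Its levels were 6.72, 6.97 and 7.20 in WT_DMSO and 7.36, 7.56 and 7.86 in WT_AG494, against 7.40, 7.93 and 7.85 in APP_DMSO and 7.02, 7.47 and 7.19 in APP_AG494. Within the runs it changed by 0.64, 0.59 and 0.66 in WT cells and by -0.38, -0.45 and -0.66 in APP cells. The interaction was -1.13 (SE 0.14, adjusted p = 0.0215). As a result the APP cells stood above the WT cells under vehicle (0.76, adjusted p = 0.000633) and below them under AG494 (-0.37, adjusted p = 0.0391). STON2, an adaptor that sorts synaptic vesicle proteins during endocytosis, went from 0.73 (adjusted p = 0.00147) under vehicle to -0.32 under AG494 (adjusted p = 0.0923), with an interaction of -1.04 (SE 0.16, adjusted p = 0.0452).

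A further group of genes had no called difference between the genotypes under vehicle, CCDC177 apart, and fell under AG494 in APP cells. MAPK4, an atypical MAP kinase also known as ERK4, was at 8.91, 9.16 and 8.96 in WT_DMSO and 8.65, 9.04 and 9.09 in APP_DMSO. With AG494 it was at 9.05, 9.05 and 9.06 in WT cells and 7.93, 8.18 and 8.13 in APP cells, where all 3 arrays lay below the other 9. Its interaction was -0.89 (SE 0.12, adjusted p = 0.0246). The zinc finger gene ZIK1 had an interaction of -0.89 (SE 0.13, adjusted p = 0.0315), made of 0.27 in WT cells, which did not pass, and a fall of 0.62 in APP cells.

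The neuronal adhesion gene PCDHGC4 changed by -0.74, -0.75 and -0.79 in the APP runs and by -0.07, 0.035 and -0.18 in the WT runs, an interaction of -0.69 (SE 0.093, adjusted p = 0.0241). Transcripts of the gamma-protocadherin cluster share their last exons, so that its only probe set may also read other members. CADPS, which primes dense-core vesicles for release, changed by -0.61, -0.53 and -0.58 in APP cells and by -0.13, -0.00059 and 0.12 in WT cells. Its interaction was -0.57 (SE 0.087, adjusted p = 0.0494), and it was the gene that lost its call with all 21 arrays (adjusted p = 0.119). SPAG5, a protein of the mitotic spindle, was abundant, at 10.76 ± 0.13 (SD, n = 3) in APP_DMSO and 10.12 ± 0.11 (SD, n = 3) in APP_AG494. The WT groups were at 10.79 ± 0.12 (SD, n = 3) and 10.70 ± 0.06 (SD, n = 3), which gave SPAG5 the smallest called interaction, -0.54 (SE 0.082, adjusted p = 0.0452). CCDC177 was slightly higher in APP_DMSO than in WT_DMSO (0.26, adjusted p = 0.0229) and lower under AG494 (-0.51), with an interaction of -0.77 (SE 0.091, adjusted p = 0.0144).

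The 6 genes with a more positive response in APP cells included 2 of immune signalling, XAF1 and IL32. XAF1, an interferon-induced gene that counters an inhibitor of cell death, was at 5.31, 5.41 and 5.42 in WT_DMSO and 5.32, 5.45 and 5.36 in WT_AG494. With the mutation it was at 6.41, 6.99 and 6.98 with DMSO and 7.76, 8.53 and 8.69 with AG494. It rose only where it was already raised under vehicle, and its WT levels are dim. The interaction of XAF1 was the most positive among called genes, 1.54 (SE 0.21, limma adjusted p = 0.0241).

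IL32, a cytokine gene that NF-kappaB is known to activate, was at 5.56, 5.69 and 5.49 in WT_DMSO and 6.36, 6.48 and 6.38 in WT_AG494. With the mutation it was at 6.21, 6.17 and 6.47 with DMSO and 8.22, 8.04 and 8.15 with AG494. It was higher with AG494 in every run of both genotypes, and the APP_AG494 arrays lay above all others. The rise was 0.83 in WT cells (adjusted p = 0.00737) and 1.85 in APP cells (adjusted p = 1.14e-05), so that the interaction of 1.03 (SE 0.13, adjusted p = 0.0215) is a difference in size and not in direction. The RefSeq promoter table of GRCh38.p14 holds 2 starts of IL32. The 200 bases before the start that carries a match to the NF-kappaB motif (GGG, any 2 bases, TTTCC, on either strand) are shown because the gene is called in both genotypes, with the match in capitals, from position -99 to -90 relative to the start, on the plus strand at chr16:3065203-3065402.
IL32: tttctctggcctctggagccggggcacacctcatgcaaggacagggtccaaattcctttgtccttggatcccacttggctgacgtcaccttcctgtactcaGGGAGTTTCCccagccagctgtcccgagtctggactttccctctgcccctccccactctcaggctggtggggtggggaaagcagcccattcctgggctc

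KDELR3, a receptor that returns escaped proteins to the endoplasmic reticulum (ER), was at 7.37, 7.25 and 6.90 in WT_DMSO and 6.95, 7.07 and 7.01 in WT_AG494. In APP cells it was at 6.28, 6.60 and 6.34 with DMSO and 7.45, 7.59 and 7.31 with AG494. The APP arrays lay below all WT arrays with DMSO, and with AG494 above the 3 WT_AG494 arrays. The interaction was 1.20 (SE 0.14, adjusted p = 0.0144), and the genotype difference turned from -0.76 (adjusted p = 0.000471) to 0.44 (adjusted p = 0.0137).

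SLC46A3, a transporter of the lysosomal membrane, changed by 1.25, 0.82 and 0.79 in the APP runs and by 0.052, 0.12 and 0.028 in the WT runs, an interaction of 0.88 (SE 0.12, adjusted p = 0.0241). TSPO, a protein of the outer mitochondrial membrane used as an imaging target for neuroinflammation, was at 9.39, 9.35 and 9.31 in APP_DMSO and 9.82, 9.90 and 9.98 in APP_AG494. In WT cells it was at 10.57, 10.44 and 10.46 and 10.30, 10.35 and 10.35, higher than in APP cells with and without AG494. TSPO had an interaction of 0.70 (SE 0.094, adjusted p = 0.0241). B4GALT6, which makes lactosylceramide, also stayed lower in APP cells, with means of 8.74 ± 0.12 (SD, n = 3) and 9.54 ± 0.12 (SD, n = 3) against 9.85 ± 0.13 (SD, n = 3) and 10.10 ± 0.12 (SD, n = 3) in WT cells. Its interaction was 0.56 (SE 0.077, adjusted p = 0.027), and its change in WT cells, 0.25, did not pass (adjusted p = 0.0755).

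All 22 genes had an interaction of the same sign in the 3 runs, which 36.1% of all genes did. For all 22 the 3 responses of APP cells did not overlap with the 3 of WT cells, and the same held for 19% of all genes. The 22 genes were chosen by the interaction in these same arrays, so that agreement between the runs follows largely from the choice. The called sizes ran from 0.54 to 1.84, and 19 of the 22 were at least 1.5-fold. Among all 18132 genes, called or not, 290 had an interaction past 1.5-fold, so that size alone does not set the called genes apart. Of the 22 genes, 15 had further probe sets on the array, 35 in all, and 32 of these had the sign of the chosen probe set. In 13 of the 15 genes all agreed in sign. The exceptions were TMEFF2, with 1 of 2 others of the same sign, and PPARGC1A, with 1 of 3. These counts regard sign only, and some of the other probe sets were near 0. The closest was at -0.07 in CNTN2, -0.10 in FAM135B, -0.10 in MAPK4 and 0.10 in B4GALT6, and no other probe set of these genes was called.

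**Figure D3:**
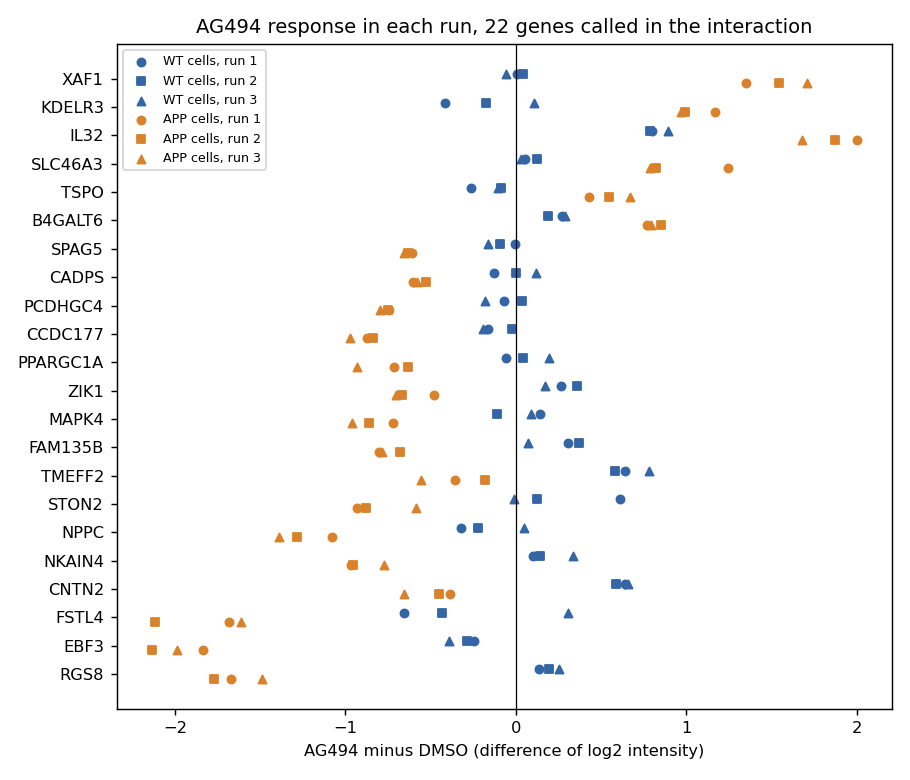
For each of the 22 called genes (rows) the plot gives the AG494 minus DMSO difference (horizontal axis, log2) in runs 1 (circles), 2 (squares) and 3 (triangles), blue for WT and orange for APP cells. In every row the blue and orange symbols do not overlap, and WT values lie between -0.65 and 0.89.

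Seen as genotype differences, 14 of the 16 genes with a negative interaction were fitted higher in APP_DMSO than in WT_DMSO, 10 of them called. Under AG494, 4 were called higher in APP cells, 8 were called lower and 4 were not called. EBF3 went from 2.03 under vehicle to 0.35 under AG494, RGS8 from 2.61 to 0.77, NPPC from 1.20 to 0.12 and NKAIN4 from 1.28 to 0.18. XAF1 went the other way, from 1.41 to 2.95. The APP_DMSO and WT_DMSO arrays enter both the genotype difference and the interaction, so that these pairs of values are 2 views of the same 12 arrays. Across all genes, 2442 (13.5%) were called between the genotypes under DMSO, 7.81% higher and 5.65% lower in APP cells, and 2409 (13.3%) under AG494, 6.52% higher and 6.76% lower.

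**Figure D4:**
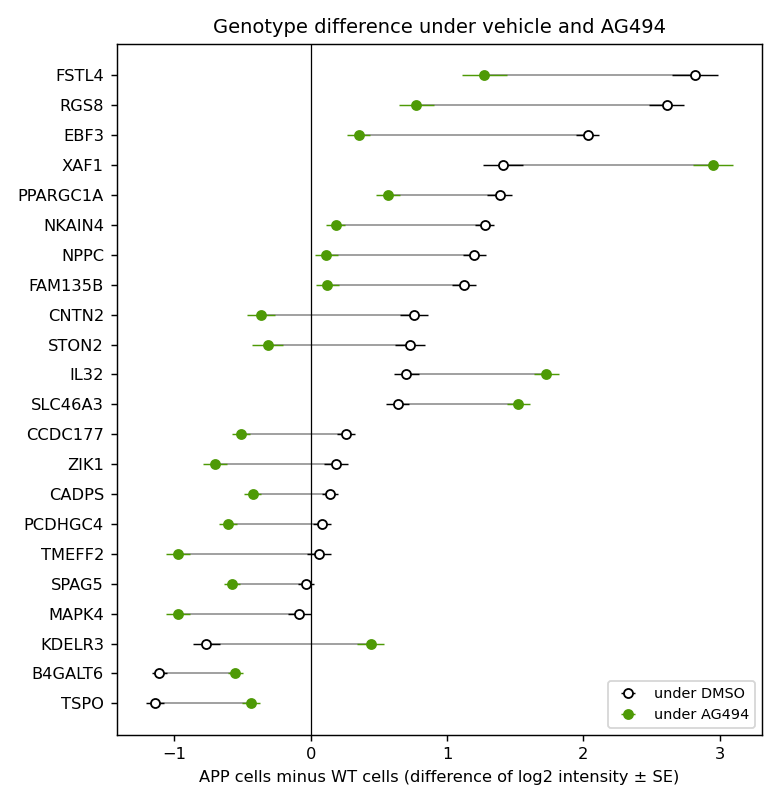
The plot gives the APP minus WT difference (horizontal axis, log2, with the SE of the fit as bars) under DMSO (open circles) and under AG494 (green circles) for the 22 called genes, ordered by the difference under DMSO. FSTL4, RGS8 and EBF3 lose much of a large excess, TMEFF2 and MAPK4 move from near 0 to -0.97, and TSPO and B4GALT6 stay below 0.

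Interferon response genes were the list with the largest median interaction. These genes are switched on when interferons activate STAT and IRF factors, and their products restrict viruses. Of 37 measured members, 36 had a positive interaction, and the median was 0.56 against -0.0044 over all genes. XAF1 was the only member called in the interaction, and 22 members were at an unadjusted p under 0.05, where 12.6% of all genes were. In APP cells 29 of the 37 rose under AG494 and none fell, where 3.18% of all genes rose; in WT cells only IFI44 rose, where 0.485% of all genes rose. The mean change of the list in the 3 runs was -0.03, 0.16 and 0.24 in WT cells and 0.71, 0.81 and 0.73 in APP cells. Its mean level on the APP_DMSO arrays, 8.32, 8.72 and 8.78, was already above that on the WT arrays, which lay between 7.04 and 7.33. With AG494 it reached 9.02, 9.53 and 9.51. With all 21 arrays in the fit, 8 members were called more positive, where 0.524% of all genes were. The median ranged from 0.39 to 0.64 when single arrays or runs were left out.

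SAMD9, an antiviral factor of this list, had the largest estimate, with levels of 6.21, 6.80 and 7.70 in APP_DMSO and 8.40, 8.57 and 8.61 in APP_AG494. In WT cells it was at 5.87, 5.63 and 6.02 and 5.42, 5.90 and 5.98. The APP_DMSO arrays spread widely, and the interaction of 1.69 (SE 0.30) did not pass (limma adjusted p = 0.0685, and 0.00962 with 21 arrays). The RNA sensors RIGI (0.95, adjusted p = 0.135) and IFIH1 (1.11, adjusted p = 0.155) and the gene IFIT3 (1.31, adjusted p = 0.135), whose product binds with other IFIT proteins to viral RNA, did not pass either. IFI44 was the exception in sign, with 1.01 in WT cells, 0.65 in APP cells and an interaction of -0.37. The receptors, STATs and IRFs of the pathway had a median of 0.06 over 15 genes, which ranged from -0.02 to 0.10 when single arrays or runs were left out. Of these, 2 rose in APP cells (3.18% of all genes did) and 1 in WT cells (0.485% of all genes).

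Genes that load peptides on MHC class I followed the same order. Of 19 measured, 18 had a positive interaction, with a median of 0.26, and 11 rose in APP cells, where 3.18% of all genes did. None was called in the interaction or in WT cells by limma. In the interaction 11 were at an unadjusted p under 0.05, where 12.6% of all genes were. With 21 arrays 3 were called more positive, where 0.524% of all genes were. NLRC5, the transactivator of these genes, was at 5.51, 5.55 and 5.48 in WT_DMSO, 5.51, 5.68 and 5.56 in WT_AG494, 6.75, 7.52 and 7.05 in APP_DMSO and 8.09, 8.83 and 9.06 in APP_AG494. Its interaction was 1.49 (SE 0.25, adjusted p = 0.0586). HLA-B, a heavy chain that presents peptides, had one of 1.31 (SE 0.22, adjusted p = 0.0586), and class I genes are alike in sequence, so that its probe set may read others too. The peptide transporter TAP1 rose in APP cells from 8.82 ± 0.62 (SD, n = 3) to 10.55 ± 0.36 (SD, n = 3), and its interaction of 1.03 did not pass (adjusted p = 0.131).

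The promoters of these genes were searched for the interferon response element, ISRE, written here as TTTC, any 2 bases and TTTC on either strand, from 250 bases before to 50 bases after each RefSeq start. It was present in 28 of 42 promoters of the interferon list (66.7%, 31 of 37 genes matched) and in 9 of 26 of the MHC class I list (34.6%, 16 of 19 genes matched), against 3.57% of 35116 promoters in all. None of the promoters found for 5 of the 6 more positive and 13 of the 16 more negative called genes matched it, and no match says only that these letters are not in this window. SAMD9 had the largest estimate of the interferon list in the interaction, and TAP1 the largest of the MHC class I list in the APP response. In the interaction NLRC5 and HLA-B had larger estimates than TAP1, and HLA-B had no match in its window. Of SAMD9 and TAP1, 200 bases before a start are shown, with the matches in capitals. SAMD9 is on the minus strand at chr7:93117980-93118179 (GRCh38.p14), with a match from position -136 to -127. TAP1 has 2 starts in the table, and the other has no match; the start shown is on the minus strand at chr6:32853705-32853904, with 2 overlapping matches that begin at -134 and -128.
SAMD9: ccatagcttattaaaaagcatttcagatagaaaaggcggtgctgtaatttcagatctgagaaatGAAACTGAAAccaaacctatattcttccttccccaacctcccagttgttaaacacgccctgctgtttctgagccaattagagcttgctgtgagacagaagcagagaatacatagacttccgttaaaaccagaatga
TAP1: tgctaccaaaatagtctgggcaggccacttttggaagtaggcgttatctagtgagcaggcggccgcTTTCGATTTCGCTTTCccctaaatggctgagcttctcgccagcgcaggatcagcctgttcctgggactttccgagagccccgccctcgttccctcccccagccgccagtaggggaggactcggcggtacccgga

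Chaperones and other genes of the unfolded protein response, which rise when folding in the ER is disturbed, had a median interaction of 0.30 over 23 genes, 19 of them positive. None was called, and 13 were at an unadjusted p under 0.05, where 12.6% of all genes were. With 21 arrays 3 were called more positive, where 0.524% of all genes were. In APP cells 5 rose under AG494, where 3.18% of all genes did, among them XBP1, a transcription factor of this response (0.53), and the chaperone gene CRELD2 (0.46). The list mean changed by -0.03, -0.10 and 0.00 in the WT runs and by 0.26, 0.20 and 0.24 in the APP runs. MANF, a secreted ER stress protein that protects neurons, was at 12.18, 12.07 and 11.89 in WT_DMSO and 11.88, 11.77 and 11.57 in WT_AG494, lower with AG494 in each run. Its APP levels were 11.74, 11.73 and 11.62 with DMSO and 12.02, 11.88 and 11.90 with AG494, higher in each run. Neither change passed (adjusted p = 0.0589 and 0.0508), nor did the interaction of 0.55 (SE 0.091, adjusted p = 0.0586, and 0.0038 with 21 arrays). CRELD2 had an interaction of 0.62 (SE 0.12, adjusted p = 0.077). KDELR3, described above as called, acts in the same compartment and is not on this list.

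The ER stress element, ERSE, searched as CCAAT, any 9 bases and CCACG on either strand, was found in 10 of 29 promoters of the chaperone list (34.5%) against 0.0769% of all promoters. KDELR3 had no match in its window. CRELD2 is shown as the member with the largest estimate, on the plus strand at chr22:49918434-49918633 (GRCh38.p14), with the match, which lies on the opposite strand, in capitals from position -80 to -62.
CRELD2: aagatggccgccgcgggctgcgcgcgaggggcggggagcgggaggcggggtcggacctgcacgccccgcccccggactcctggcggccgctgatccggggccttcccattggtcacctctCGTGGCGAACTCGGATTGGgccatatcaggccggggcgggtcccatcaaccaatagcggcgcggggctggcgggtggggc

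Genes of cell division moved in the opposite direction to the interferon genes. In bulk samples fewer cells of a type and less RNA per cell cannot be told apart, here for dividing cells. All 39 mitosis and G2/M genes had a negative interaction, with a median of -0.37. In APP cells 37 of them fell under AG494, where 4.61% of all genes did, and in WT cells CDC25C and NEK2 fell, where 0.364% of all genes did. None was called in the interaction by limma, and 31 were at an unadjusted p under 0.05, where 12.6% of all genes were. With 21 arrays 8 were called more negative, where 0.728% of all genes were. The mean change of the list was -0.10, -0.16 and -0.37 in the WT runs and -0.45, -0.59 and -0.71 in the APP runs, so that the decline in WT run 3 came close to that in APP run 1. Mean levels lay between 10.63 and 10.77 in APP_DMSO and between 10.04 and 10.17 in APP_AG494. In WT cells they lay between 10.75 and 10.83 with DMSO and between 10.46 and 10.73 with AG494.

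BUB1B, a kinase of the spindle checkpoint, was at 10.12, 9.99 and 10.21 in WT_DMSO, 10.09, 9.92 and 9.98 in WT_AG494, 10.09, 9.93 and 10.30 in APP_DMSO and 9.49, 9.30 and 9.53 in APP_AG494. The APP_AG494 arrays lay below the other 9, and the interaction was -0.56 (SE 0.10, adjusted p = 0.0635, and 0.0141 with 21 arrays). The kinetochore gene NUF2 (-0.61, adjusted p = 0.15) and the chromosome motor KIF4A (-0.57, adjusted p = 0.135) were alike in size and did not pass. The proliferation marker MKI67 fell by 0.46 in APP cells, with -0.069 in WT cells and an interaction of -0.39 (adjusted p = 0.323). SPAG5, called above, belongs to the spindle too and is not on this list.

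The cell cycle homology region, CHR, searched as TTTGAA on either strand, was present in 27 of 39 promoters of the mitosis list (69.2%, 33 of 39 genes matched) and in 15.2% of all promoters. BUB1B is shown because its interaction is described above, on the plus strand at chr15:40160869-40161068 (GRCh38.p14), with the match in capitals from position -23 to -18.
BUB1B: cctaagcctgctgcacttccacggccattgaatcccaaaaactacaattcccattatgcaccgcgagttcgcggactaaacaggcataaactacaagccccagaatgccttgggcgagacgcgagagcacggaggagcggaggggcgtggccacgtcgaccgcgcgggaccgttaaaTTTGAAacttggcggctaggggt

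DNA replication and S phase genes had a median interaction of -0.29, with 39 of 40 negative. In APP cells 21 fell, where 4.61% of all genes did, and in WT cells none was called. No member was called in the interaction by limma, and 24 were at an unadjusted p under 0.05, where 12.6% of all genes were. With 21 arrays 6 were called more negative, where 0.728% of all genes were. The list mean lay between 10.53 and 10.54 on the APP_AG494 arrays and between 10.74 and 10.91 on the other 9. UHRF1, which keeps DNA methylation through replication, had the largest negative estimate (-0.65, adjusted p = 0.124), followed by the transcription factor E2F1 (-0.55, adjusted p = 0.119). Replication-dependent histone genes had a median of -0.15 over 53 genes, and of -0.26 without run 3. Of these, 35 fell in APP cells (4.61% of all genes did), and in WT cells 3 fell (0.364% of all genes) and 1 rose (0.485%). H2AC25 went against this order, with -1.37 in WT cells and -0.54 in APP cells, both called, and an interaction of 0.84 (adjusted p = 0.124). 

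**Figure D5:**
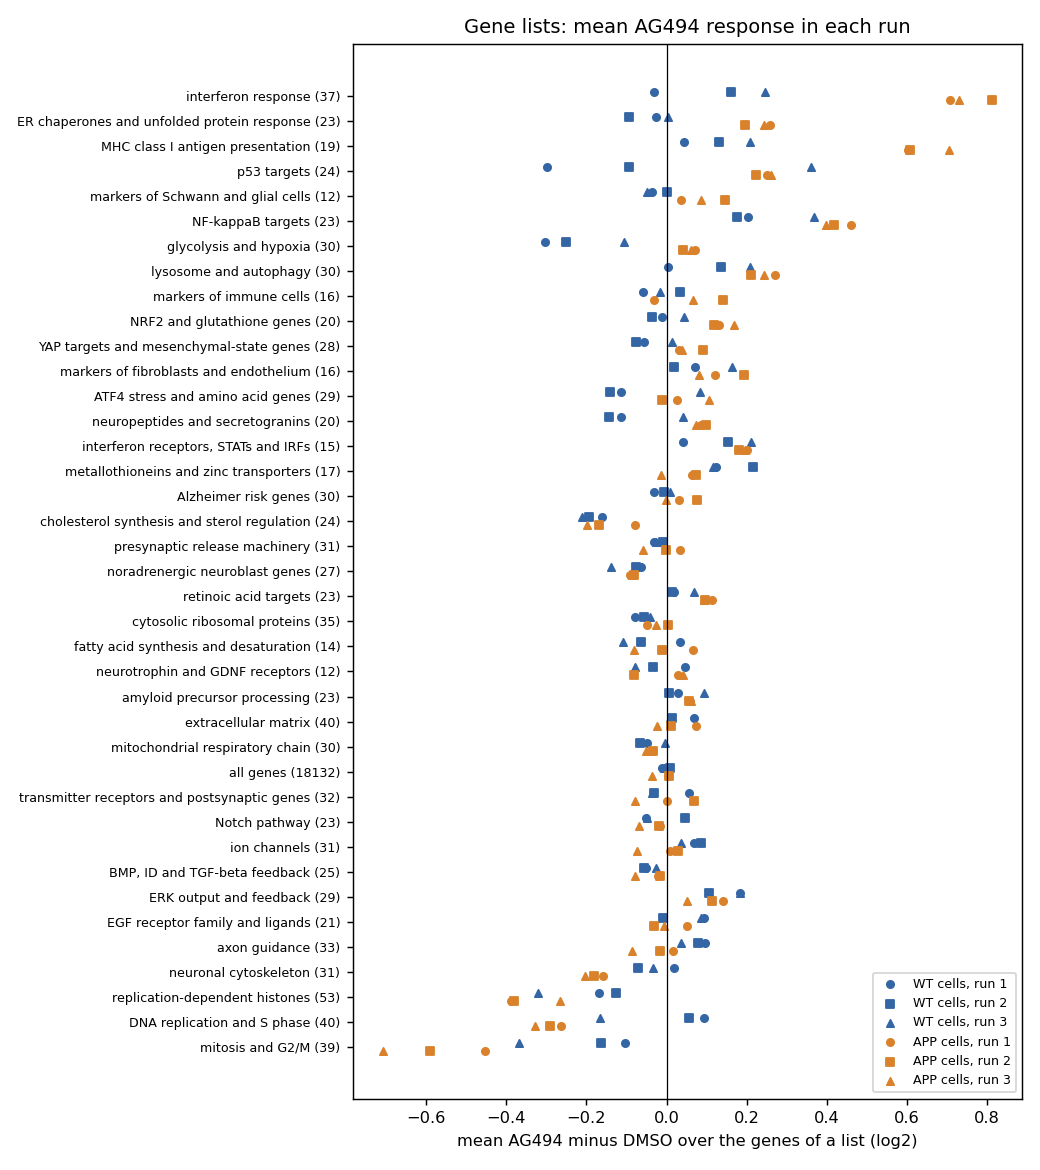
For 38 gene lists and all genes (rows, with the number of measured genes), the plot gives the mean AG494 minus DMSO difference of the list (horizontal axis, log2) in runs 1 (circles), 2 (squares) and 3 (triangles), blue for WT and orange for APP cells, ordered by the median interaction. The interferon list is highest and the mitosis list lowest, and for both the orange symbols lie outside the range of the blue ones.

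Of 23 measured targets of NF-kappaB, 11 rose in APP cells, where 3.18% of all genes did, and 3 in WT cells, where 0.485% did. The median interaction was 0.16, with IL32 as the called member, and 0.29 without WT_AG494 replicate 3 or 0.24 without APP_AG494 replicate 3. ICAM1, an adhesion receptor for white cells, had an interaction of 0.97 (SE 0.23, adjusted p = 0.135) and rose in APP cells by 1.15. The chemokine gene CCL2 rose by 2.44 in WT cells and by 1.48 in APP cells, with an interaction of -0.96 (SE 0.37, adjusted p = 0.331). It was at 8.44, 8.54 and 7.52 in WT_DMSO, 10.61, 10.41 and 10.81 in WT_AG494, 11.01, 11.43 and 11.82 in APP_DMSO and 12.90, 12.80 and 13.01 in APP_AG494, and WT_DMSO replicate 3 was the lowest array. The NF-kappaB motif was found in 12 of 25 promoters of the list (48%) and in 1.91% of all promoters.

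In the pathway that AG494 is known to inhibit, no listed gene was called in the interaction with 12 arrays. Among 21 genes of the EGF receptor family, its ligands and adaptors, limma called none in the interaction. At an unadjusted p under 0.05 there were 2, where 12.6% of all genes were. The median was -0.06, which ranged from -0.10 to 0.01 with single arrays or runs left out. EGFR itself changed by 0.27 in WT cells and 0.23 in APP cells, with an interaction of -0.043 (SE 0.14). NRG1, a ligand of the related receptors ERBB3 and ERBB4, fell by 0.60 in APP cells and changed by 0.046 in WT cells, with an interaction of -0.64 (SE 0.11, adjusted p = 0.0635). With 21 arrays NRG1 was called more negative (adjusted p = 0.0423), the only member of its list. Among 29 genes of ERK output and feedback the median was -0.04, with a range from -0.13 to 0.03 when single arrays or runs were left out. In the interaction limma called none, and 5 were at an unadjusted p under 0.05, where 12.6% of all genes were. In WT cells 3 rose (0.485% of all genes did) and in APP cells 5 (3.18% of all genes). The feedback inhibitors SPRY1 and SPRY4 rose in both, SPRY4 by 0.46 in WT cells and 0.45 in APP cells. MYC had 0.37 in WT cells, -0.47 in APP cells and an interaction of -0.84 (SE 0.23, adjusted p = 0.183).

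Of 24 cholesterol synthesis genes, 5 fell in WT cells (0.364% of all genes did) and 6 in APP cells (4.61% of all genes), with a median interaction of 0.05 that ranged from 0.01 to 0.07 with single arrays or runs left out. DHCR7, which makes the last step to cholesterol, fell by 0.53 in WT cells and by 0.58 in APP cells, an interaction of -0.049 (SE 0.12). The p53 targets had a median of 0.24, but their mean change in the WT runs spread from -0.30 to 0.36, and the median ranged from 0.08 to 0.43 with single arrays or runs left out. Hypoxia and glycolysis genes had a median of 0.13 over 30 genes, and of 0.07 without APP_DMSO replicate 1 or without APP_AG494 replicate 3. Their mean change was -0.30, -0.25 and -0.11 in the WT runs and 0.07, 0.04 and 0.06 in the APP runs, which did not overlap. ADM, a vasodilator peptide gene induced by low oxygen, had the largest estimate among them (1.64, SE 0.32, adjusted p = 0.0809), with -0.44 in WT cells and a rise of 1.19 in APP cells. Neuronal cytoskeleton genes had a median of -0.14, with 24 of 31 negative, and of -0.08 without WT_DMSO replicate 1. In APP cells 8 fell, where 4.61% of all genes did, and in WT cells none. Their mean change was 0.02, -0.07 and -0.03 in the WT runs and -0.16, -0.18 and -0.20 in the APP runs, which did not overlap either. The neurofilament genes NEFH (-0.66) and NEFM (-0.54) had the most negative interactions, which did not pass (adjusted p = 0.135 and 0.138).

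Among 23 genes of amyloid precursor processing the median was 0.01, and among 30 Alzheimer risk genes it was 0.05. limma called none in the interaction in either list, with 1 and 6 members at an unadjusted p under 0.05, where 12.6% of all genes were. The marker lists of glial cells, of fibroblasts and endothelium and of immune cells had medians of 0.17, 0.08 and 0.10. With 12 arrays none was called in the interaction, and 0, 3 and 3 members were at an unadjusted p under 0.05, where 12.6% of all genes were. In the APP response 1 fibroblast or endothelium marker and 1 immune marker were called higher, where 3.18% of all genes were. With single arrays or runs left out these medians ranged from 0.07 to 0.22, from 0.03 to 0.15 and from 0.01 to 0.12. With 21 arrays the immune marker CD68, a lysosomal protein of macrophages, was called more positive (interaction 0.48, adjusted p = 0.0428). The mean level of the 16 immune markers lay between 6.07 and 6.16 in WT_DMSO, 6.09 and 6.14 in WT_AG494, 6.11 and 6.15 in APP_DMSO, and 6.12 and 6.25 in APP_AG494. The part of any such cells in the interferon values was not tested.

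Of the largest single responses, several were shared. The WT and APP calls had 69 genes in common, which were 44.8% of the WT calls and 4.88% of the APP calls, and 67 of these went the same way; CNTN2 and TMEFF2 were the others. GPNMB, a glycoprotein of lysosomes, was at 5.55, 5.18 and 5.56 in WT_DMSO and 6.82, 7.16 and 6.63 in WT_AG494. The APP levels were 5.58, 5.60 and 5.56 and 6.99, 6.81 and 7.16, with the AG494 arrays of both genotypes above all DMSO arrays. Its interaction was -0.026 (SE 0.21). The 4 other probe sets of GPNMB had the opposite sign, up to 0.43, and none was called in the interaction. VCAM1, an adhesion molecule, rose by 1.37 in WT cells and 1.49 in APP cells (interaction 0.13, SE 0.20). Its other probe set had an interaction of 0.44, which was not called. CHRND, a muscle-type acetylcholine receptor subunit, fell in both, with changes of -1.22 and -1.27 (interaction -0.055, SE 0.29).

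The matrix protein gene MGP had the largest rise in APP cells, 2.08, with 1.15 in WT cells and an interaction of 0.93 that did not pass (adjusted p = 0.264). Falls in APP cells were led by INSM1, a transcription factor of neuroendocrine cells, at 9.56, 9.51 and 9.59 in APP_DMSO and 6.61, 6.53 and 7.23 in APP_AG494. In WT cells INSM1 was at 7.13, 8.05 and 8.35 with DMSO and 6.63, 7.19 and 6.95 with AG494, lower with AG494 in each run. Its interaction was -1.84 (SE 0.30, adjusted p = 0.0586, and 0.0038 with 21 arrays). SMOC1, a secreted calcium-binding protein, fell by 1.67 in APP cells with an interaction of -1.06 (SE 0.34, adjusted p = 0.242). The other probe set of SMOC1, at -1.50, was called in a fit of all probe sets, so that its call depends on the probe set. The adaptor SKAP2 and GABRP, a GABA receptor subunit, fell in WT cells by 0.96 and 0.90, and CD9, a tetraspanin, by 0.83. Their interactions were 0.74, 0.73 and 0.42 (adjusted p = 0.27, 0.0796 and 0.167). With 21 arrays GABRP was called (limma adjusted p = 0.0328). Of the 8 other probe sets of CD9, 2 were called in a fit of all probe sets, and the highest was at 0.91.

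MT1F, a metallothionein that binds zinc and copper, had the most negative estimate of all the genes named here and did not pass. It was at 7.31, 7.38 and 8.53 in WT_DMSO and 8.38, 9.24 and 9.71 in WT_AG494, a rise of 1.37 (adjusted p = 0.0272), with WT_DMSO replicate 3 above the other 2. In APP cells it was at 10.11, 9.94 and 10.25 and 9.51, 9.55 and 9.81, and lower with AG494 in each run. The interaction was -1.85 (SE 0.32, adjusted p = 0.0635, and 0.00806 with 21 arrays). Metallothionein genes are alike in sequence, so that its probe set may read others; the list as a whole had a median of 0.05 over 17 genes, and of -0.02 without APP_DMSO replicate 1.

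The same lines were also given NOSCA, another compound of the series whose dose the labels do not give, and its values are set beside those of AG494, with shared DMSO arrays. In the fit of 21 arrays EBF3 changed by -0.08 in WT cells and -0.36 in APP cells under NOSCA, against -0.31 and -1.99 under AG494. XAF1 changed by -0.14 and 0.15 under NOSCA, IL32 by 0.18 and 0.25, KDELR3 by -0.24 and 0.01, and NPPC by 0.10 and 0.39, and none of these changes passed. CNTN2 rose in WT cells under NOSCA by 0.57 (adjusted p = 0.0455, where 0.243% of all genes rose) as it did under AG494. MT1F also rose in WT cells under NOSCA, by 1.51 (limma adjusted p = 0.0045). H2AC25 (-1.15), SKAP2 (-0.85), GABRP (-0.76) and CD9 (-0.70) fell there with a call, as they did under AG494 against the same DMSO arrays. The genotype interaction of NOSCA held 3 called genes (0.0165%), all higher, with H2AC25 among them at 1.52 (adjusted p = 0.0114). With AG494 set directly against NOSCA, limma called a difference in the interaction for 30 genes (0.165%). Among them were EBF3 (-1.40, adjusted p = 7.65e-05), NPPC (-1.37, adjusted p = 6.97e-06), IL32 (0.96, adjusted p = 0.00183) and XAF1 (1.25, adjusted p = 0.0329). Of the 22 genes, RGS8, KDELR3, NKAIN4 and SPAG5 were called too. The remaining genes, which were the majority of the 22, did not pass. They included CNTN2 (-0.46, adjusted p = 0.332), TMEFF2 (-0.67, adjusted p = 0.0989), STON2 (-0.59, adjusted p = 0.293) and TSPO (0.40, adjusted p = 0.203). The interaction of NOSCA had the sign of the AG494 one in each of the 22 genes except NPPC, where it was 0.29. Its size was largest in CNTN2 (-0.67), RGS8 (-0.57) and PPARGC1A (-0.50) and smallest in SPAG5 (-0.02). None of the NOSCA interactions of the 22 genes passed. Both interactions use the same DMSO arrays, so that an agreement in sign is not independent. At unstated doses these values compare the treatments as given and not the compounds.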

How the data were processed

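Total RNA (25 ng) was amplified and hybridised to PrimeView arrays, per the labels. The authors deposited log2 intensities; the submitters' processing notes name RMA and affy, whose versions are not given in the sources used here. They ran from 4.143 to 14.37 and were used as deposited. Of 49372 probe sets, 79 controls were left out, 44988 had 1 symbol in the platform's annotation (44961 matched RefSeq by Entrez ID) and 4305 had several or none. The probe set with the highest mean stood for its gene, giving 18132 genes, 11734 with more than 1 probe set.

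The interaction and both responses were fitted to 12 arrays with limma 3.58.1 in R 4.3.3 (lmFit, eBayes; 6 residual and 4.46 prior degrees of freedom), with the run as block and p adjusted by Benjamini and Hochberg over all genes; the script was tested on simulated data. No dim gene was filtered out, no intensity has a count behind it, and the number of arrays limits the precision. The series text speaks of 3 independent experiments. The runs pair the arrays: deviations from group means correlated at 0.233 to 0.623 in 18 pairs of the same run and at -0.528 to 0.0673 in 36 pairs of different runs. Without this replicate block 7 genes were called in the interaction, 15 in the WT response and 592 in the APP response, against 22, 154 and 1413 with it.

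Genes named are up to 15 called per direction with 1 sign in all runs, called list members, genes called in opposite directions, those with the 5 largest called rises and falls of each response, and APP; list members without a call are given as values. SPAG5 was the 16th negative call. The comparison and the 38 gene lists were chosen with earlier results of these data known, so list counts are descriptions. Promoters come from RefSeq (GRCh38.p14).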

Additional observations from a re-analysis of the deposited data

Results flagged for a closer look

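The 22 genes below stand out because AG494 moved them differently in the 2 genotypes by the interaction test of limma at an adjusted p under 0.05, and 22 of 18132 genes (0.121%) did so. The more positive ones in APP cells had interactions of 1.54 (XAF1), 1.20 (KDELR3), 1.03 (IL32), 0.88 (SLC46A3), 0.70 (TSPO) and 0.56 (B4GALT6) on the log2 scale. Among the more negative ones, those called higher in APP_DMSO than in WT_DMSO were RGS8 (-1.84), EBF3 (-1.68), FSTL4 (-1.54), CNTN2 (-1.13), NKAIN4 (-1.09), NPPC (-1.09), STON2 (-1.04), FAM135B (-1.003), PPARGC1A (-0.82) and CCDC177 (-0.77). Those without a called difference under DMSO were TMEFF2 (-1.03), MAPK4 (-0.89), ZIK1 (-0.89), PCDHGC4 (-0.69), CADPS (-0.57) and SPAG5 (-0.54).

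A signal also appeared in probe sets that entered no comparison because they have no single gene symbol. When 4305 such probe sets were fitted together with the genes, 9 of them were called in the interaction, 6 more negative and 3 more positive in APP cells, and the 22 genes were called as before. All 9 are unnamed in the annotation used here.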

How the results depend on the processing

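The counts of calls moved with most choices, while no called gene changed its sign in any of them. In the interaction (22 calls), 7 genes were called without the replicate block, 227 with 21 arrays and the block, 7 with 21 arrays without it, 77 with probe sets averaged per gene, 76 among all probe sets, 47 with the probe set of largest SD, 38 after centring, 160 with a trended robust prior and 153 with array weights. In WT cells (154), these were 15 without the block, 354 and 46 with 21 arrays with and without it, 322 with the robust prior and 59 at 1.5-fold. In APP cells (1413), they were 592 without the block, 2134 and 860 with 21 arrays, 3121 among all probe sets, 2260 with array weights and 345 at 1.5-fold. With single arrays left out the counts ranged from 3 to 206, from 4 to 206 and from 622 to 1591; with a run left out, which leaves 3 residual degrees of freedom, they ranged from 0 to 45, from 0 to 76 and from 96 to 770. The counts of 0 came without run 2, where limma gave 1070 genes of the interaction and 1262 of the WT response an unadjusted p under 0.05.

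The interaction count was 5 without WT_DMSO replicate 1, 6 without replicate 2 and 206 without replicate 3; 11, 3 and 5 without WT_AG494 replicates 1, 2 and 3; 46, 4 and 3 without those of APP_AG494; and 11 without APP_DMSO replicate 2. KDELR3 lost its call with 3 of the 12 arrays left out, NPPC with 4, TMEFF2 with 5, EBF3, RGS8 and NKAIN4 with none, and each of the other 16 with 6 to 11. Without a single run, only EBF3 among the 22 kept its call in 2 of 3 cases. List medians with arrays or runs left out were an alternative added after the data had been seen.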

Other observations

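Several genes narrowly missed the threshold of the interaction with 12 arrays; they are named here after their values were seen. Among them were transcription factors of development. IRX3 fell by 0.96 in APP cells and changed by -0.05 in WT cells, an interaction of -0.91 (SE 0.14, limma adjusted p = 0.0564), and HHEX had one of -0.97 (SE 0.16, adjusted p = 0.0586). TBX3 rose by 0.65 in APP cells, an interaction of 0.55 (SE 0.092, adjusted p = 0.0586). SEC24D, a coat protein of vesicles that leave the ER, rose by 0.57 in APP cells with an interaction of 0.46 (SE 0.076, adjusted p = 0.0586). CREB3L2, a membrane-bound transcription factor that acts on secretory genes, rose there by 0.65 with an interaction of 0.67 (SE 0.11, adjusted p = 0.0586). BAMBI, a decoy receptor of the BMP and TGF-beta pathways, was lower in APP_DMSO (8.05, 7.69 and 7.82) than in WT_DMSO (10.02, 9.56 and 9.16). It rose to 9.17, 8.91 and 8.997 with AG494 in APP cells and was at 10.09, 9.59 and 9.67 in WT cells, an interaction of 0.97 (SE 0.16, adjusted p = 0.0586). All 6 were called with 21 arrays, at adjusted p of 0.0149, 0.0423, 0.0038, 0.0147, 0.0038 and 0.0045.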
